A study of Homo sapiens with 15 samples.

Results

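MV4-11 leukemia cells given 300 nM of DW71177 were compared directly with MV4-11 cells given 300 nM of DW71374, after 24 h. Both are code names of compounds. The members of the comparison were the 3 arrays titled DW71177 and the 3 arrays titled DW71374, that is 6 of the 15 arrays of a series described in the labels as gene expression data for BET inhibitors. The quantity compared was the log2 difference of the 2 group means for each of 14812 named genes, with every gene read from the feature (an array probe set) of highest mean over the 15 arrays. DW71177 and DW71374 were the only pair of code-named compounds at a matched dose and time, so 1 pair of compounds was compared. MV4-11 is an established human acute myeloid leukemia line, with a fusion of KMT2A to AFF1 and an internal FLT3 duplication that keeps this receptor active. Per the labels, all groups were this line in RPMI medium with fetal bovine serum. The other groups were DMSO vehicle, OTX015 at 300 nM and RVX208 at 5 uM, each for 24 h with 3 arrays. DMSO is the vehicle background here, and OTX015 and RVX208 are given only as values set beside the pair. A single line at 1 dose and 1 time is what the design covers. The 3 arrays of a group trace back to triplicate wells, and nothing in the labels names separate cultures. The p-values therefore measure only the spread among these arrays, and that spread may be technical.

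BET proteins are readers of acetylated lysine that bring the elongation kinase P-TEFb and other transcription machinery to active promoters and enhancers. Inhibitors of their bromodomains displace them from chromatin, and in leukemia cells they are known for lowering MYC and other genes that depend on large enhancers. HEXIM1, the gene of a P-TEFb inhibitor, is widely used as a marker because it rises on BET inhibition. The structures of the 2 code-named compounds are not described here, and the question put to the data was how far the transcriptomes they leave behind differ at the same dose.

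DW71177 and DW71374 left different transcriptomes. Limma called 2887 of 14812 genes at an adjusted p under 0.05 (19.5%), 1478 higher with DW71177 (9.98%) and 1409 lower (9.51%). Of these, 250 were higher and 332 lower by at least 1.5-fold, 27 higher and 63 lower by at least 2-fold, and 0 higher and 7 lower by at least 4-fold. The typical called difference was small, with a median of 0.39 on the log2 scale (1.31-fold), and 2305 of the calls (79.8%) were under 1.5-fold. The large differences therefore lay mostly on the side of genes lower with DW71177. The 3 arrays of one compound lay wholly above or below those of the other in 2849 of the called genes and overlapped in 38. Over all genes such separation was seen in 4676 (31.6%). Unless stated otherwise, a difference below is the DW71177 mean minus the DW71374 mean in log2 units ± the standard error of the fit (n = 3 and 3), with its 95% interval and the adjusted p of limma. Readings are log2 signals of replicates 1 to 3, and where "against" joins sets of readings the first is DW71177 and the second DW71374.

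**Figure D1:**
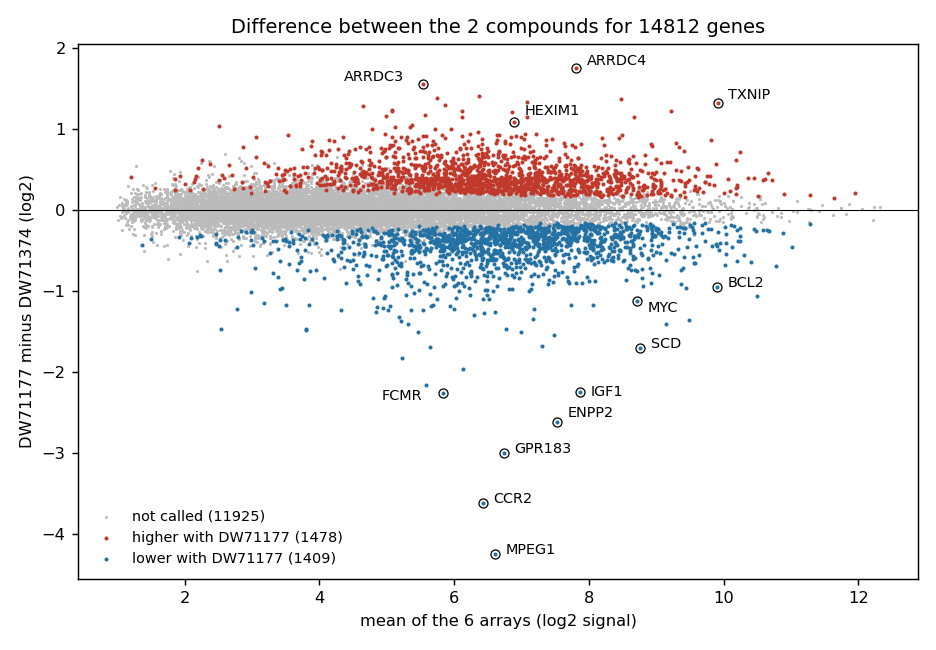
Each point is 1 of 14812 genes, placed by the mean of its 6 arrays (log2 signal, horizontal axis) and by DW71177 minus DW71374 (log2, vertical axis). The 1478 genes called higher are red, the 1409 called lower are blue and the 11925 not called are grey, and the points farthest from 0 lie on the lower side, down to MPEG1 at -4.26.

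No background level was given with the table, and the array medians lay between 3.72 and 3.79. A fold whose lower group mean was under 5 is therefore at best a lower bound, and such genes are marked "dim" where named. The share of genes called rose with the level, from 1.89% of genes with a mean under 3 to 24.1% at 5 to 6 and 51.5% at 8 to 9, then 43.2% at 9 and over. Of protein-coding genes 22.9% were called, against 6.27% of long noncoding RNAs, 7.9% of transcribed pseudogenes and 2.54% of microRNA loci, whose median levels were 5.15, 3.52, 3.97 and 2.87 in that order. The counts for gene groups below are to be read against 9.98% higher and 9.51% lower over all genes, and against the rise of the share with level. Genes were named by a rule (given under the processing), and genes named beyond it, which were chosen after their values were seen, are marked as added.

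**Figure D2:**
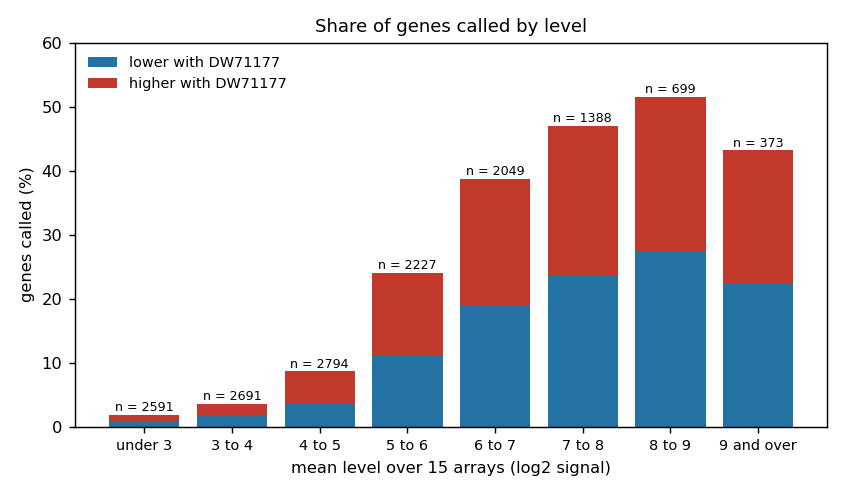
Bars give the share of genes called (percent, vertical axis, from 0) in bins of the mean level over 15 arrays (log2 signal, horizontal axis), split into genes lower (blue) and higher (red) with DW71177, with the number of genes above each bar. The share climbs from 1.89% under 3 to 51.5% at 8 to 9, and both colours appear in every bin.

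The largest differences were those of MPEG1, CCR2 and GPR183, all lower with DW71177. MPEG1, which encodes the pore-forming protein perforin-2 of macrophages, read 4.53, 4.59 and 4.31 on the DW71177 arrays, 8.66, 8.80 and 8.73 on the DW71374 arrays and 8.65, 8.65 and 8.75 on the DMSO arrays. The DW71177 arrays lay far below the others, and those of DW71374 and DMSO overlapped. The difference was -4.26 ± 0.10 (-4.48 to -4.03, adjusted p = 1.2e-11), 19.1-fold and dim. CCR2, the receptor that draws monocytes to the chemokine CCL2, read 4.44, 4.74 and 4.66 with DW71177 against 8.35, 8.18 and 8.17 with DW71374 and 8.20, 8.29 and 8.31 with DMSO. Again the compounds did not overlap and DW71374 spanned the DMSO range, with a difference of -3.62 ± 0.097 (-3.83 to -3.41, 12.3-fold, dim, adjusted p = 3.1e-11). GPR183, an oxysterol receptor that guides migrating immune cells, read 4.95, 5.44 and 5.32 with DW71177, 8.18, 8.26 and 8.25 with DW71374 and 8.14, 8.14 and 8.29 with DMSO. Its 3 DW71177 arrays were all far below the rest. The difference was -3.00 ± 0.11 (-3.23 to -2.76, 7.98-fold, adjusted p = 6.7e-10).

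ENPP2 encodes autotaxin, the secreted enzyme that makes lysophosphatidic acid, and it read 6.14, 6.33 and 6.17 with DW71177 and 8.81, 8.88 and 8.82 with DW71374. IGF1, a growth factor, read 6.77, 6.75 and 6.69 with DW71177 and 9.09, 9.01 and 8.86 with DW71374. In both genes the compounds were separated by far more than the spread of either group, with differences of -2.62 ± 0.060 (6.16-fold, adjusted p = 9.8e-12) and -2.25 ± 0.078 (4.76-fold, adjusted p = 5.1e-10). The IgM receptor gene FCMR (-2.26 ± 0.10, dim), OCSTAMP, which encodes a membrane protein of osteoclast fusion (-2.16 ± 0.19, dim), the Notch pathway ubiquitin ligase gene DTX4 (-1.96 ± 0.086), the transglutaminase gene TGM5 (-1.83 ± 0.13, dim) and the desaturase gene SCD (-1.71 ± 0.060) completed the 10 largest falls. OCSTAMP was the most uneven of these, with 3.91, 4.79 and 4.81 on the DW71177 arrays and 6.83, 6.51 and 6.64 on the DW71374 arrays.

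Rises with DW71177 were smaller. The largest was in ARRDC4, an alpha-arrestin that helps to take glucose transporters off the cell surface, which read 8.59, 8.79 and 8.66 with DW71177, 7.01, 6.91 and 6.88 with DW71374 and 6.87, 7.07 and 6.97 with DMSO. DW71177 stood above both of the other groups, which overlapped, and the difference between the compounds was 1.75 ± 0.068 (1.6 to 1.90, 3.36-fold, adjusted p = 1.7e-09). SLFN5, an interferon-inducible Schlafen family gene, read 7.10, 7.15 and 6.96 against 5.46, 5.60 and 5.95, a difference of 1.4 ± 0.13 (adjusted p = 6.1e-06). The kinase gene TESK2 (1.38 ± 0.093), the ubiquitin ligase adapter gene ZYG11B (1.33 ± 0.078), ROPN1L (1.29 ± 0.10), the extracellular chaperone gene CLU (1.28 ± 0.17, dim) and KIAA0513 (1.23 ± 0.16, dim) were also among the 10 largest. NCF1B at 1.37 ± 0.084 is one of several near-identical copies of the NADPH oxidase gene NCF1, so which copy the signal came from is uncertain. CLU spread widely within both groups, 5.64, 5.15 and 5.07 with DW71177 and 3.73, 3.94 and 4.35 with DW71374, although the groups stayed apart.

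**Figure D3:**
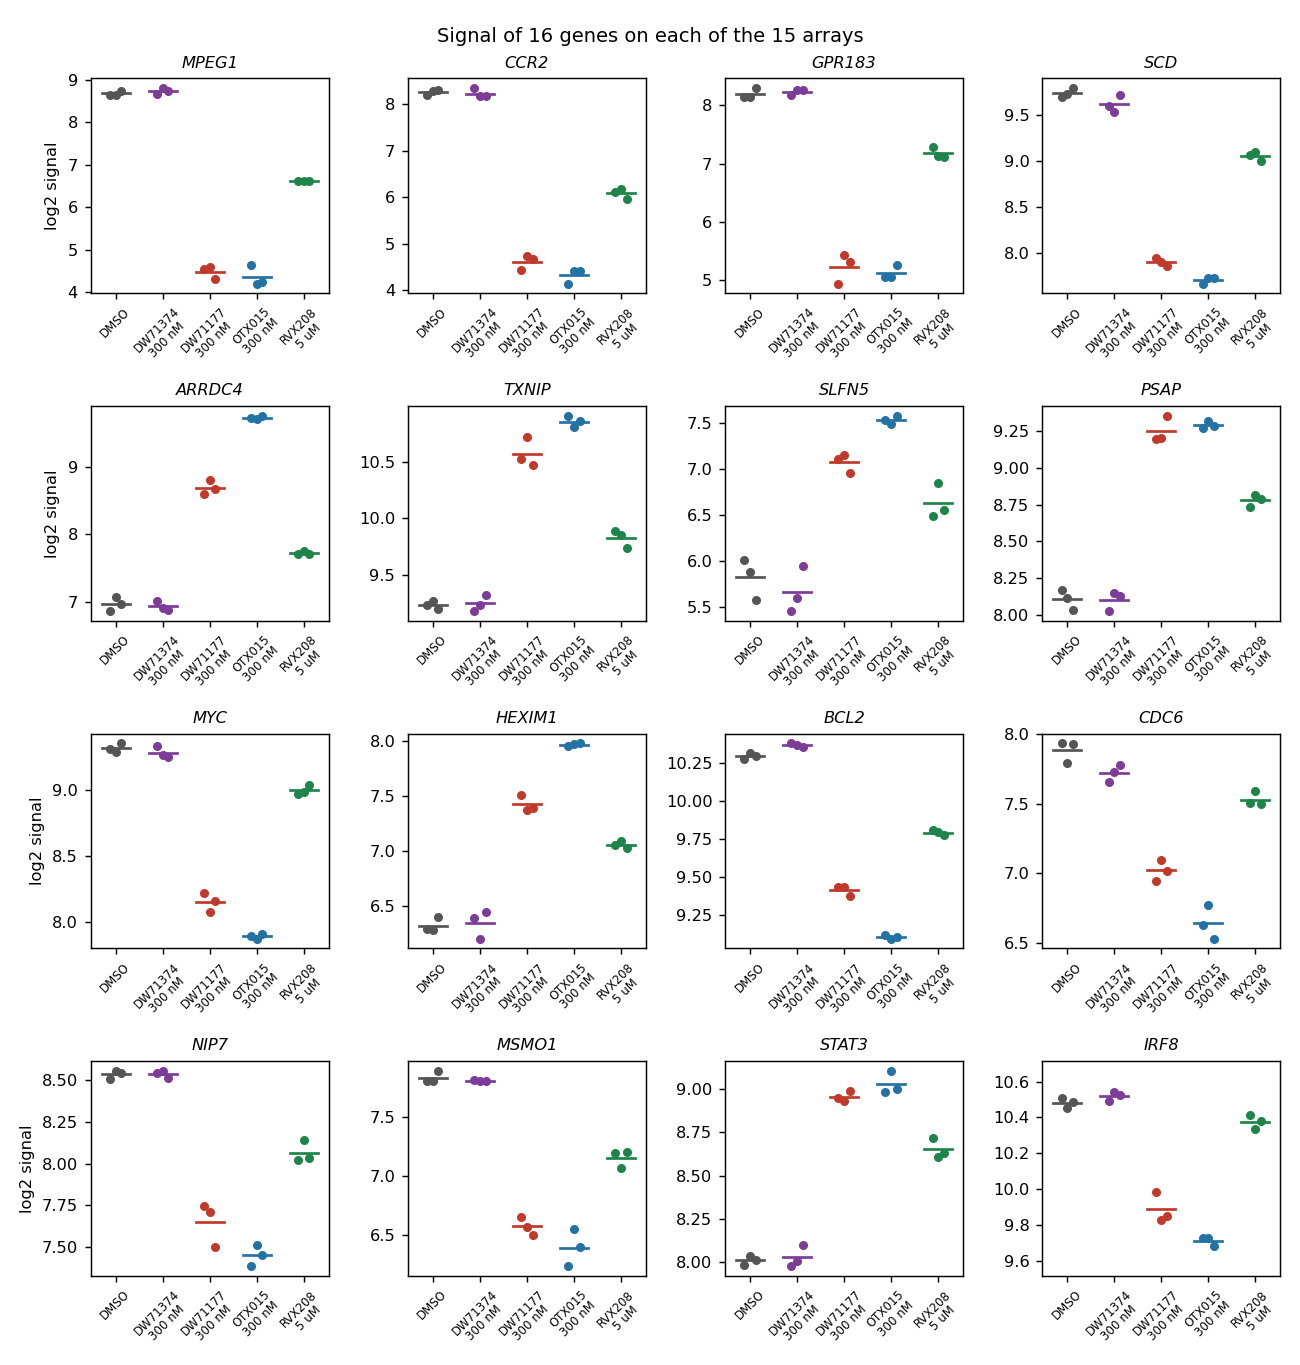
Points are single arrays and bars are means of 3 arrays (log2 signal, vertical axes that differ between panels and do not start at 0) for 16 genes in the 5 groups. DW71374 sits near DMSO in the panels, for example at 9.33, 9.26 and 9.25 against 9.31, 9.29 and 9.35 for MYC, while DW71177 is displaced from both, downward in 10 panels and upward in 6.

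BET proteins and their partners were compared first among the functional groups. Of 8 measured genes of BET proteins and P-TEFb 2 were called higher, 0 lower, and the list median was 0.05. HEXIM1 read 7.51, 7.38 and 7.39 with DW71177, 6.39, 6.20 and 6.44 with DW71374 and 6.28, 6.28 and 6.39 with DMSO. All DW71177 arrays were above all others, by 1.08 ± 0.068 over DW71374 (0.94 to 1.23, 2.12-fold, adjusted p = 1.7e-07), while a second HEXIM1 feature differed by 0.60. BRD2, a ubiquitous BET protein, read 6.96, 7.10 and 6.97 with DW71177 and 6.67, 6.61 and 6.61 with DW71374, a difference of 0.38 ± 0.058 (adjusted p = 0.00031). BRD3 (0.07 ± 0.065, interval -0.07 to 0.21), the P-TEFb kinase gene CDK9 (0.11 ± 0.054), its cyclin gene CCNT1 (-0.13 ± 0.069) and MEPCE, which caps the 7SK RNA that holds P-TEFb inactive (-0.14 ± 0.056), did not pass the test.

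Genes of the MYC network differed in both directions. MYC itself, the transcription factor of growth genes, read 8.22, 8.08 and 8.16 with DW71177, 9.33, 9.26 and 9.25 with DW71374 and 9.31, 9.29 and 9.35 with DMSO. The DW71177 arrays were the lowest throughout, 2.19-fold below DW71374 (-1.13 ± 0.054, -1.24 to -1.01, adjusted p = 1.3e-08). MXD1, a MAX partner that opposes MYC, was higher by 0.70 ± 0.069 (adjusted p = 8.3e-06), with 6.76, 6.88 and 6.83 against 6.09, 6.20 and 6.09. MGA, another MAX partner, was lower, at -0.29 ± 0.062, and the shared partner MAX (added) differed by 0.01 ± 0.063 and was not called. Of 11 measured network genes 2 were higher and 3 lower (median -0.01). The remaining calls were MXD3 (-0.23 ± 0.057) and MXD4 (0.36 ± 0.10), and that of MXD4 was lost without DW71177 replicate 1 or 3 or DW71374 replicate 1 or 3, at 0.29 to 0.31.

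The measured genes of ribosome assembly in the nucleolus were lower with DW71177 almost throughout. Of 18 measured nucleolar genes 17 were lower and 0 higher, with a list median of -0.52 against 0.01 over all genes, and the 17 ranged from -0.98 to -0.30. NIP7, which acts in large subunit maturation, read 7.75, 7.71 and 7.5 with DW71177, 8.54, 8.55 and 8.51 with DW71374 and 8.5, 8.55 and 8.54 with DMSO. The DW71177 arrays were all lower, with a difference of -0.88 ± 0.068 (-1.03 to -0.73, adjusted p = 1e-06). NOP16 (-0.98 ± 0.091), MYBBP1A (-0.89 ± 0.061), RRS1 (-0.80 ± 0.081), NOLC1, a chaperone of small nucleolar ribonucleoproteins (-0.68 ± 0.060), and NOP58, a core protein of these particles (-0.56 ± 0.051), were also lower. RRN3 (added), the initiation factor of RNA polymerase I, was the 1 not called, at -0.12 ± 0.094. The E-box letters CACGTG, a palindrome that MYC is known to bind, stood in 6 of the 13 promoters of these genes in the RefSeq table (46.2%), against 7.43% of all 27305 and 9.03% of those of the genes compared. They also stood in 6 of 22 promoters of the lysosome and autophagy genes (27.3%) and in 3 of 13 of the replication genes (23.1%). Of the 6 lysosome and autophagy genes, CTSD, NEU1 and MCOLN1 were higher, and CTSA, LAMP1 and ATG14 were not called.

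Few genes of cytosolic ribosomal proteins were called, and most calls among the mitochondrial ones were lower. Of 19 measured cytosolic ribosomal protein genes 1 was lower and 0 higher (median -0.07), and the 1 call, RPS23 at -0.25 ± 0.083 (adjusted p = 0.049), was lost without any single one of the 6 arrays, at -0.29 to -0.19. RPL6 (-0.17 ± 0.067) and RPS3 (-0.12 ± 0.049) did not pass the test, although among genes of a mean of at least 5 alone 3 of the list were called lower. Of 32 mitochondrial ribosomal protein genes 17 were lower and 1 higher (median -0.23). MRPL3 read 8.38, 8.37 and 8.35 against 9.24, 9.19 and 9.18, with no overlap and a difference of -0.84 ± 0.058 (adjusted p = 4.1e-07), followed by MRPL15 (-0.67 ± 0.076) and MRPL4 (-0.55 ± 0.072). With only the 6 arrays of the compounds in the fit 11 mitochondrial genes were lower, and the 1 higher, MRPS14 (added, 0.22 ± 0.068), lost its call without any of 4 arrays (DW71177 replicates 1 and 2, DW71374 replicates 2 and 3).

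Many enzymes that charge transfer RNAs and make nucleotides, and some that make serine, were lower as well. Of 17 cytosolic aminoacyl-tRNA synthetase genes 10 were lower and 0 higher (median -0.35), led by the isoleucine enzyme gene IARS1, with 8.56, 8.57 and 8.51 against 9.32, 9.27 and 9.37 (-0.78 ± 0.051, adjusted p = 2.7e-07), LARS1 (-0.73 ± 0.064) and VARS1 (-0.68 ± 0.065). Of 19 nucleotide synthesis genes 13 were lower and 1 higher (median -0.35). PFAS, a purine pathway enzyme, read 6.72, 6.54 and 6.59 with DW71177 and 7.69, 7.57 and 7.61 with DW71374, 2.01-fold apart (-1.0 ± 0.073, -1.16 to -0.85, adjusted p = 6.4e-07). CTPS2 (-0.76 ± 0.088) and DHODH (-0.65 ± 0.074) of pyrimidine synthesis, ATIC of purine synthesis (-0.57 ± 0.055) and the ribonucleotide reductase subunit gene RRM1 (-0.45 ± 0.064) differed less. The 1 higher gene, ADSS1 (added, 0.25 ± 0.083, adjusted p = 0.049), lost its call without DW71177 replicate 2 or 3 or DW71374 replicate 1 or 2.

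Genes of serine synthesis showed a pair of large falls, among few that were measured. PSAT1 read 8.24, 8.39 and 8.38 with DW71177 and 9.32, 9.23 and 9.28 with DW71374, and PHGDH, the first enzyme of the pathway, read 5.17, 4.96 and 4.82 with DW71177 and 5.87, 6.20 and 5.86 with DW71374. Both were lower in every DW71177 array, with differences of -0.94 ± 0.062 and -0.99 ± 0.10 (dim), and MTHFD1L of mitochondrial folate metabolism was lower, at -0.99 ± 0.070. Of 7 genes of serine and one-carbon metabolism 4 were lower and 0 higher (median -0.19). The fourth call, SHMT2 at -0.19 ± 0.054, was lost without each array other than DW71177 replicate 2, at -0.20 to -0.17. PSPH (added), another enzyme gene of serine synthesis, differed by -0.01 ± 0.061 and was not called. Polyamine genes differed in both directions, 6 of 17 higher and 3 lower with a median of -0.00. The spermidine and spermine synthases SRM (-0.70 ± 0.058) and SMS (-0.24 ± 0.053) and AMD1, which supplies their aminopropyl donor (-0.32 ± 0.064), were lower. SAT1, which acetylates polyamines for export and breakdown, was higher, at 5.66, 5.90 and 5.67 against 4.80, 5.03 and 4.70 (0.90 ± 0.13, dim, adjusted p = 0.00021), as were its relative SAT2 (0.32 ± 0.075) and the lysosomal polyamine exporter gene ATP13A2 (0.35 ± 0.063). ODC1 (added), the first enzyme of synthesis, differed by -0.03 ± 0.058 and was not called.

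The measured DNA replication genes were nearly all lower. Only 16 of 40 listed genes of origin licensing and the fork were measured. Of the 16, 15 were lower and 0 higher, with a median of -0.55 and a range of -0.71 to -0.18 among the 15. CDC6, which loads the replicative helicase, read 6.95, 7.10 and 7.02 with DW71177, 7.66, 7.73 and 7.78 with DW71374 and 7.94, 7.79 and 7.93 with DMSO. The DW71177 arrays were below all others, with a difference of -0.70 ± 0.073 against DW71374 (-0.86 to -0.54, 1.63-fold, adjusted p = 1.2e-05), and those of DW71374 lay just under DMSO (-0.16 ± 0.073, adjusted p = 0.99). MCM6 of the helicase ring read 8.5, 8.51 and 8.5 with DW71177 and 9.04, 9.06 and 9.08 with DW71374, a difference of -0.56 ± 0.047 with very little spread. CDC45 (-0.70 ± 0.073), MCM2 (-0.60 ± 0.065), MCM5 (-0.59 ± 0.051), MCM3 (-0.43 ± 0.049), and the added genes GINS1 (-0.71 ± 0.092), GINS2 (-0.63 ± 0.088) and CDT1 (-0.49 ± 0.061) differed by similar amounts. The sliding clamp gene PCNA (added) was lower, at -0.18 ± 0.052, a call lost without DW71177 replicate 2 or 3 or DW71374 replicate 1 or 3, and GINS4 (added) did not pass at -0.15 ± 0.053.

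The promoters of the replication genes were searched for the letters that E2F factors are known to bind. The search covered 250 bases before to 50 after each gene's start in RefSeq promoters (GRCh38.p14) on both strands for TTTCCCGC, TTTGGCGC and TTTCGCGC. Of the 13 replication genes with a promoter listed 10 held a match (76.9%), against 763 of all 27305 promoters (2.79%) and 3.74% of those of the genes compared. Among the mitosis genes 4 of 27 promoters held a match (14.8%). The 10 replication genes with a match differed by -0.71 (GINS1) to -0.18 (PCNA). Those without, CDC45, MCM10 and FEN1, were lower as well, at -0.70, -0.67 and -0.52. Whether the matches bear on the differences was not tested. The motifs were chosen after other strings had been searched, and a match is a description of the sequence. Stretches of 3 of the promoters are shown with their matches in capitals, written in the direction of the gene. In MCM6 each capital stretch is TTTGGCGC overlapping GCGCGAAA, the reverse complement of TTTCGCGC, and GCGGGAAA in the others is the reverse complement of TTTCCCGC.
MCM6, chr2:135876502-135876615, minus strand: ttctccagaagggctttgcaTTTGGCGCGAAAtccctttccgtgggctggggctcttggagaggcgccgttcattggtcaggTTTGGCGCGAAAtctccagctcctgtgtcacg
GINS2, chr16:85688958-85689005, minus strand: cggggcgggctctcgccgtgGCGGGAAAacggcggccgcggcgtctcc
CDT1, chr16:88803734-88803781, plus strand: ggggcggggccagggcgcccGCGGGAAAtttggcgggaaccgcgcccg

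Mitosis and repair genes had smaller median differences. Of 31 mitosis genes 25 were lower and 0 higher (median -0.35). BUB1B of the spindle checkpoint read 6.69, 6.70 and 6.57 against 7.26, 7.23 and 7.30 (-0.61 ± 0.062, adjusted p = 1.1e-05). TOP2A, which untangles sister chromosomes, differed by -0.45 ± 0.047, AURKB by -0.48 ± 0.067 and KIF2C by -0.37 ± 0.051, and the DW71177 arrays were below all DW71374 arrays in each. Of 18 DNA repair genes 12 were lower and 0 higher (median -0.34), among them the exonuclease gene EXO1 (-0.68 ± 0.065), PALB2 of homologous recombination (-0.60 ± 0.083) and the uracil glycosylase gene UNG (-0.57 ± 0.051).

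Cell cycle regulators were lower in 11 of 22 cases and higher in 1 (median -0.24). The phosphatase gene CDC25A, which activates cyclin-dependent kinases, read 6.15, 6.23 and 6.13 against 7.05, 7.07 and 7.22 (-0.95 ± 0.072, adjusted p = 9e-07). The kinase genes CDK6 (-0.62 ± 0.063) and CDK4 (-0.57 ± 0.055) and the cyclin genes CCNA2 (-0.53 ± 0.057) and CCND2 (-0.48 ± 0.067) were lower too. RB1, which restrains E2F factors, was the 1 higher gene, at 9.30, 9.34 and 9.31 with DW71177 and 8.67, 8.70 and 8.70 with DW71374. Its arrays were separate, with a difference of 0.63 ± 0.052 (0.52 to 0.74, adjusted p = 1.8e-06), and without DW71374 replicate 2 the count of higher genes was 2.

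Cholesterol and fatty acid genes were lower at many steps of both pathways. Of 21 genes of cholesterol synthesis and uptake 15 were lower and 1 higher (median -0.45). MSMO1, a sterol demethylase, read 6.65, 6.57 and 6.5 with DW71177, 7.81, 7.80 and 7.80 with DW71374 and 7.81, 7.80 and 7.89 with DMSO. The 3 DW71374 arrays were nearly equal and all DW71177 arrays lay below them, with a difference of -1.23 ± 0.076 (-1.39 to -1.06, 2.34-fold, adjusted p = 1.5e-07). DHCR7, of the last step to cholesterol (-1.18 ± 0.12), TMEM97, the sigma-2 receptor (-1.17 ± 0.069), HMGCS1, an early enzyme (-0.95 ± 0.070), the sterol sensor gene INSIG1 (-0.72 ± 0.066) and EBP (-0.62 ± 0.052) were lower as well. The 1 higher gene was TM7SF2 (added), a sterol reductase, at 0.49 ± 0.092 (adjusted p = 0.0016).

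Of 18 genes of fatty acid synthesis and desaturation 8 were lower and 3 higher (median -0.08). SCD, which makes monounsaturated fatty acids, read 7.95, 7.91 and 7.86 with DW71177, 9.60, 9.53 and 9.72 with DW71374 and 9.70, 9.73 and 9.79 with DMSO. DW71177 was lower than DW71374, at -1.71 ± 0.060 (-1.84 to -1.58, 3.27-fold, adjusted p = 5.7e-10), and a second SCD feature differed by -1.57. FASN, the fatty acid synthase, read 7.54, 7.52 and 7.37 against 8.64, 8.68 and 8.63 (-1.18 ± 0.058, adjusted p = 1.6e-08). ACSL5 (-1.51 ± 0.12, dim), the desaturase genes FADS1 (-0.72 ± 0.073) and FADS2 (added, -1.04 ± 0.21) and ACACA, the first committed enzyme (-0.63 ± 0.063), were lower too. The 3 higher genes, FADS3 (0.36 ± 0.098), ACSS2 (0.30 ± 0.080) and ACSL1 (0.28 ± 0.074), all added, lost their calls together without DW71177 replicate 2 or DW71374 replicate 1.

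The promoters of the cholesterol genes were searched in the same way for GATTGG, the inverted CCAAT letters to which NF-Y is known to bind, on both strands. Of 19 with a promoter listed 11 held a match (57.9%), against 15.7% of all promoters and 17.9% of those of the genes compared. So did 7 of 13 promoters of the replication genes and 11 of 27 of the mitosis genes. The 11 included TM7SF2, which was higher, and MVD and HSD17B7, which were not called, and the others were lower genes. INSIG1, which was lower, held none. The MSMO1 and HMGCS1 stretches show matches in capitals, CCAATC being the reverse complement.
MSMO1, chr4:165327573-165327618, plus strand: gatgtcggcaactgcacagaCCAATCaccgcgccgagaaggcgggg
HMGCS1, chr5:43313488-43313588, minus strand: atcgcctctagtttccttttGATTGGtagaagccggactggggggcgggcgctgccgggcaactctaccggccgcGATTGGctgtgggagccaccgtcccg

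Lysosome and autophagy genes were higher with DW71177 wherever they were called. Of 28 measured members 10 were higher and 0 lower (median 0.18). PSAP, the precursor of the saposins that help lysosomal enzymes break down sphingolipids, read 9.19, 9.21 and 9.35 with DW71177, 8.03, 8.15 and 8.13 with DW71374 and 8.17, 8.11 and 8.04 with DMSO. Only the DW71177 arrays stood apart, 2.22-fold above DW71374 (1.15 ± 0.062, 1.01 to 1.28, adjusted p = 4.4e-08). GABARAPL2, an autophagosome membrane protein, read 7.83, 7.91 and 7.93 against 7.06, 6.99 and 6.99 (0.88 ± 0.061). The protease gene CTSB (0.68 ± 0.060), the lysosomal membrane gene LAMP2 (0.65 ± 0.055), the sialidase gene NEU1 (0.55 ± 0.049) and the autophagy receptor gene SQSTM1 (0.51 ± 0.068) were also higher.

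Alpha-arrestins, adapters that bring ubiquitin ligases to membrane proteins, were higher in 3 of 6 cases and lower in 0 (median 0.80). TXNIP, which binds thioredoxin and limits glucose uptake, read 10.53, 10.72 and 10.47 with DW71177, 9.18, 9.24 and 9.33 with DW71374 and 9.23, 9.27 and 9.20 with DMSO. Its DW71177 arrays exceeded all others, by 1.32 ± 0.072 over DW71374 (1.17 to 1.48, 2.5-fold, adjusted p = 4.4e-08), and a second feature differed by 1.65. ARRDC3, 6.32, 6.52 and 6.11 against 4.57, 5.05 and 4.68, was higher by 1.55 ± 0.12 (dim, adjusted p = 8.7e-07). ARRDC1 (0.15 ± 0.061), ARRDC2 (-0.07 ± 0.078) and ARRDC5 (0.28 ± 0.094, dim) did not pass the test. Parts of the promoters of ARRDC4 and TXNIP, which rose together, are shown with matches in capitals. Both hold the inverted CCAAT letters GATTGG, as do that of ARRDC1, which was not called, and 15.7% of all promoters (17.9% of those of the genes compared), and that of ARRDC4 also holds the E-box letters CACGTG, which 7.43% of all promoters hold in this window.
ARRDC4, chr15:97960473-97960540, plus strand: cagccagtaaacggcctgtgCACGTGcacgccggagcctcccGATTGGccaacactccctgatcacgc
TXNIP, chr1:145996695-145996740, minus strand: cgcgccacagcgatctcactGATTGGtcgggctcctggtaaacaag

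Differences in the measured genes of energy metabolism were small. These were 10 of 24 listed glycolysis genes and 10 of 38 listed oxidative phosphorylation genes. Of 10 glycolysis genes 4 were lower and 1 higher (median -0.18). LDHA (-0.39 ± 0.069), HK2 (-0.37 ± 0.071) and GPI (-0.32 ± 0.054) were lower, HK1 was higher (0.37 ± 0.057), and LDHB was lower, at -0.23 ± 0.058, a call lost without DW71374 replicate 2. For LDHA part of the distance lay on the DW71374 side, at 5.82, 5.82 and 5.76 with DW71177, 6.10, 6.14 and 6.32 with DW71374 and 6.02, 6.05 and 5.93 with DMSO. Of 10 oxidative phosphorylation genes CYC1 was the 1 lower (-0.34 ± 0.068) and 0 were higher (median -0.10).

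Monocyte genes moved both ways, with the largest differences downward. Of 21 monocyte and macrophage genes 6 were lower and 3 higher (median 0.01), and 12 of the 21 had a mean under 5 with both compounds. CSF1R, the receptor for macrophage colony-stimulating factor, read 5.92, 5.96 and 6.02 with DW71177 and 6.99, 6.99 and 7.06 with DW71374, with a difference of -1.05 ± 0.076 (-1.21 to -0.89, adjusted p = 5.7e-07). LYZ, lysozyme, read 9.90, 9.98 and 10.00 with DW71177 and 11.01, 10.97 and 11.09 with DW71374 (-1.06 ± 0.058), and a second LYZ feature differed by -1.67. The scavenger receptor gene CD36 was lower, at -1.16 ± 0.097 (dim). Against these, CD86, a costimulator of T cells, was higher, with 6.24, 6.46 and 6.25 against 5.37, 5.52 and 5.39 (0.89 ± 0.077, adjusted p = 2.7e-06), and CD68 was higher by 0.28 ± 0.064. The last 3 calls were lost without single arrays. TLR2 (added, -0.31 ± 0.085) lost its call without DW71177 replicate 2 or DW71374 replicate 2 or 3, CSF3R (-0.31 ± 0.085) without DW71177 replicate 1 or 3 or DW71374 replicate 2, and TLR4 (added, 0.47 ± 0.13, dim) without replicate 1 or 2 of either compound. CD14 (added) lay at 2.98 with DW71177 and 3.09 with DW71374 and was not called (-0.12 ± 0.12). These are bulk samples, in which fewer cells of a type and less RNA per cell cannot be told apart.

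Marker lists were measured beside these genes. Of 8 myeloid markers of the line 2 were higher and 4 lower with DW71177, with array means of 8.23 to 8.29 against 8.42 to 8.44, and with the 6 arrays alone 2 were lower. Among them LYZ was at 9.96 with DW71177 and 11.02 with DW71374, FLT3 at 9.81 and 9.72, SPI1 at 7.51 and 7.76, and MPO, of neutrophil granules, at a dim 4.11 and 4.72. Of 11 lymphoid markers 1 was lower, NKG7 (-0.71 ± 0.085), and 0 higher, with array means of 4.52 to 4.66 and 4.64 to 4.70, and without DW71177 replicate 1 CD2 was lower as well. Of 8 erythroid and megakaryocyte and 8 epithelial and stromal markers 0 were called either way, with array means of 4.22 to 4.30 against 4.21 to 4.32 and of 3.8 to 3.82 against 3.69 to 3.83, and without DW71374 replicate 3 the platelet gene PF4 was lower. Single markers were brighter than these means. The highest lymphoid gene mean was 6.63 with DW71177 and 7.34 with DW71374. The epithelial gene KRT18 stood at 7.70 and 7.75 on its brighter feature, and at 5.44 and 5.63 on a second one. No marker was at 0, since the table has no 0 values, and the part of other cells in the results was not tested.

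Receptors that guide cell migration were lower where they were called. The mean was under 5 with both compounds for 13 of 19 chemotactic receptor genes. Of the 19, 4 were lower and 0 higher (median -0.07), or 1 higher without DW71177 replicate 2 or DW71374 replicate 2. Besides CCR2 and GPR183 these were CCR1, a receptor for CCL3 and CCL5, with 6.49, 6.46 and 6.55 against 7.92, 7.83 and 7.78 (-1.34 ± 0.059, 2.53-fold, adjusted p = 5.8e-09), and CXCR4, which holds cells in the bone marrow, with 9.20, 9.30 and 9.21 against 9.90, 9.85 and 9.95 (-0.66 ± 0.058, adjusted p = 2.9e-06). In every one of the 4 the DW71177 arrays were below all DW71374 arrays. Of 11 neutrophil granule genes 4 were lower and 0 higher (median -0.12), namely CTSG (-1.33 ± 0.12, dim), BPI (-0.68 ± 0.095, dim), MPO (-0.61 ± 0.11, dim) and PRTN3 (-0.28 ± 0.055). For 6 of the 11 the mean was under 5 with both compounds. CTSG read 4.48, 4.71 and 4.34 with DW71177, 5.68, 6.08 and 5.76 with DW71374 and 5.46, 5.70 and 5.60 with DMSO, so 2 of the 3 DW71374 arrays lay above the DMSO range.

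Transcription factors of blood cells were lower in 7 of 25 cases and higher in 1 (median -0.00). IRF8, which directs monocyte and dendritic cell development, read 9.98, 9.83 and 9.85 with DW71177, 10.49, 10.54 and 10.53 with DW71374 and 10.51, 10.45 and 10.48 with DMSO. Its DW71177 arrays were the lowest, with a difference of -0.63 ± 0.055 (-0.75 to -0.52, adjusted p = 2.7e-06). IRF4 (-0.90 ± 0.070), RUNX3 (-0.59 ± 0.091), IRF5 (-0.55 ± 0.073) and RUNX2 (-0.34 ± 0.055) were lower too. Smaller differences were those of MEF2D (added, -0.26 ± 0.050) and SPI1, the master regulator of myeloid fate (-0.24 ± 0.059), and LMO2 was the 1 higher (0.50 ± 0.064).

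Genes of the program that KMT2A fusions maintain were called in both directions. The HOXA genes were not analysed here. Of 14 other genes of the HOXA-MEIS1 program 3 were higher and 5 lower (median 0.02). MEIS1, a cofactor of HOXA proteins, read 7.28, 7.41 and 7.09 with DW71177 and 6.81, 6.89 and 6.96 with DW71374, higher by 0.37 ± 0.083 (adjusted p = 0.0051). KIT, the stem cell factor receptor, read 4.43, 4.46 and 4.31 with DW71177 and 5.66, 5.61 and 5.64 with DW71374, lower, at -1.24 ± 0.12 (dim, adjusted p = 6.8e-06). FLT3 differed by 0.09 ± 0.058 (interval -0.04 to 0.22) and MYB by 0.04 ± 0.064 (interval -0.10 to 0.18), and neither passed the test. The further lower calls were BCL2 (-0.95 ± 0.047), CDK6 (-0.62 ± 0.063), RUNX2 (-0.34 ± 0.055) and MEN1 (added, -0.25 ± 0.059), which encodes the fusion's partner menin. LMO2 (0.50 ± 0.064) and JMJD1C (added, 0.28 ± 0.078) were also higher. The call of JMJD1C was lost without DW71177 replicate 2 or DW71374 replicate 1 or 3.

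A pair of microRNA loci of myeloid cells, both added, are shown with their mature sequences, RNA letters with the seed (bases 2 to 8) in capitals, because they differed in opposite directions. The platform annotation names the array features by the microRNA gene, and which RNA of the locus they read was not tested. Their values are not taken as levels of the mature arm.
hsa-miR-223-3p (chrX:66018937-66018958, plus strand, GRCh38.p14): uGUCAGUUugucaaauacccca
hsa-miR-155-5p (chr21:25573983-25574006, plus strand, GRCh38.p14): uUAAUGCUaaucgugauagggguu
MIR223, a locus known to be active in granulocytes and monocytes, read 6.18, 6.27 and 6.05 with DW71177, 6.82, 6.86 and 6.77 with DW71374 and 7.04, 6.76 and 6.82 with DMSO. Its DW71177 arrays were all lower, with a difference of -0.65 ± 0.075 (-0.82 to -0.49, adjusted p = 2.8e-05). MIR155, known from inflammatory activation, read 5.96, 6.11 and 5.94 against 5.86, 5.67 and 5.80, higher by 0.23 ± 0.069 (adjusted p = 0.03), a call lost without DW71177 replicate 2 or DW71374 replicate 2 or 3. The 2 mature arms have different seeds.

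Signalling genes of the JAK-STAT pathway were more often higher. Of 19 measured members 6 were higher and 1 lower (median 0.07). STAT3, the transcription factor downstream of interleukin-6 family receptors, read 8.95, 8.93 and 8.99 with DW71177, 7.98, 8.0 and 8.10 with DW71374 and 7.98, 8.04 and 8.01 with DMSO. DW71177 stood above both, by 0.93 ± 0.058 over DW71374 (0.80 to 1.05, 1.9-fold, adjusted p = 1.5e-07). JAK1 read 9.40, 9.30 and 9.29 against 8.49, 8.56 and 8.51 (0.81 ± 0.052, adjusted p = 2.2e-07). The feedback inhibitor gene SOCS1 (0.76 ± 0.070, dim), the kinase genes PIM1 (0.61 ± 0.052) and JAK3 (0.49 ± 0.090) and CISH (added, 0.23 ± 0.065) were higher, the last losing its call without replicate 1 or 3 of either compound. SOCS3 was lower, at -0.25 ± 0.059, while its second feature differed by 0.06 and the mean of both by -0.09, which was not called.

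Feedback genes of the MAPK pathway were higher in 4 of 13 cases and lower in 2 (median 0.16). DUSP6, a phosphatase that switches off ERK, read 7.99, 8.13 and 8.0 with DW71177 and 7.19, 7.19 and 7.28 with DW71374, higher by 0.82 ± 0.061 (0.69 to 0.95, adjusted p = 7.6e-07). The inhibitor gene SPRY2 (0.90 ± 0.10, dim) and the ETS factor gene ETV5 (0.90 ± 0.17, dim) were higher, while ETV4 (-0.50 ± 0.091, dim) and DUSP7 (-0.24 ± 0.053) were lower. SPRY4 was higher by 0.40 ± 0.10 (dim), a call lost without DW71177 replicate 2 or DW71374 replicate 2. Leaving out genes of a mean under 5 left 2 members higher. Among 18 immediate early genes 3 were higher and 2 lower (median 0.08). IER3 was 2.31-fold higher, with 7.59, 7.45 and 7.34 against 6.16, 6.34 and 6.25 (1.21 ± 0.081, adjusted p = 3.2e-07). It had 11 features in the table, some with identical values, of which 6 differed by 1.21 to 1.24 and the other 5 by 0.41. FOSL1, a partner of JUN, was lower, at -0.97 ± 0.068, and FOS did not pass at 0.32 ± 0.12. The higher count was 6 with a variance trend in the fit or with genes of a mean of at least 5 alone.

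Inflammatory genes were higher in 6 of 21 cases and lower in 1 (median 0.12), and 10 of the 21 had a mean under 5 with both compounds. TNF (added), the cytokine, read 8.16, 8.31 and 8.43 with DW71177, 7.26, 7.39 and 7.81 with DW71374 and 7.96, 8.05 and 7.92 with DMSO. The 2 compounds did not overlap and differed by 0.81 ± 0.15 (0.48 to 1.15, adjusted p = 0.0016), but here DMSO lay between them: DW71374 was -0.49 ± 0.15 from DMSO (adjusted p = 0.97) and DW71177 0.32 ± 0.15 (adjusted p = 0.18), neither called. The 8 features of TNF, 7 of them with equal values, differed by 0.81 to 0.90. CCL5 read 7.08, 6.96 and 6.89 against 6.26, 6.42 and 6.27 (0.66 ± 0.096, adjusted p = 0.0002), and IL18 was higher by 0.80 ± 0.13 (dim). The NF-kB subunit genes REL (0.48 ± 0.054) and NFKB1 (0.39 ± 0.063) and the adhesion gene ICAM1 (0.39 ± 0.066) were higher, while RELA (added) was not called (-0.09 ± 0.069). CXCL8, a neutrophil chemokine, was the 1 lower, with 3.34, 2.95 and 2.90 with DW71177 and 4.34, 4.56 and 4.76 with DW71374 (-1.49 ± 0.25, dim, adjusted p = 0.00076).

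Interferon-stimulated genes were higher in 10 of 29 cases and lower in 2 (median 0.09), and 15 of the 29 had a mean under 5 with both compounds. IRF7, the regulator that amplifies interferon production, read 5.89, 5.79 and 5.74 against 4.97, 4.91 and 4.99, higher by 0.85 ± 0.062 (dim, adjusted p = 6.4e-07). SLFN5 (above), SAMD9 (0.53 ± 0.068), RSAD2 (0.74 ± 0.13, dim), IRF9 (0.35 ± 0.066) and the RNA sensor gene RIGI (added, 0.59 ± 0.14, dim) were higher, whereas TRIM22 was lower, at -0.91 ± 0.084. IFIH1 (added), the other lower gene, lay under 3 in both groups, its arrays overlapped, and its call at -0.26 ± 0.080 was lost without DW71177 replicate 1 or 3 or DW71374 replicate 1 or 3. With only the 6 arrays in the fit 6 of the 29 were higher. Of 6 antigen presentation genes B2M was higher (0.35 ± 0.060) and ERAP1 (-0.43 ± 0.066) and TAPBP (-0.29 ± 0.051) were lower (median -0.08).

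Regulators of cell death split in direction. Of 18 BCL2 family genes 4 were higher and 4 lower (median -0.07). BCL2, the anti-apoptotic founder of the family, read 9.44, 9.44 and 9.38 with DW71177, 10.38, 10.37 and 10.36 with DW71374 and 10.28, 10.32 and 10.30 with DMSO. DW71177 was below both, with a difference of -0.95 ± 0.047 against DW71374 (-1.05 to -0.85, 1.94-fold, adjusted p = 1.5e-08). MCL1, also anti-apoptotic, went the other way, with 8.58, 8.66 and 8.39 against 7.91, 8.06 and 8.11 (0.52 ± 0.073, adjusted p = 0.00014). BNIP3L (0.73 ± 0.051) and BNIP3 (0.58 ± 0.11), which act in the removal of mitochondria, were higher, as was the death-promoting BCL2L11 (0.32 ± 0.089), whose call was lost without DW71177 replicate 2 or DW71374 replicate 1 or 2. BIK was lower, at -0.51 ± 0.12. Without DW71374 replicate 2 the lower count was 2, since PMAIP1 (-0.42 ± 0.11) and BID (added, -0.29 ± 0.078) lost their calls, as PMAIP1 also did without DW71177 replicate 1 and BID without DW71177 replicate 2.

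Of 16 p53 targets 4 were higher and 3 lower (median 0.04). TP53INP1, which takes part in stress responses and autophagy, read 6.54, 6.82 and 6.74 against 5.76, 5.71 and 5.81, 1.92-fold higher (0.94 ± 0.11, adjusted p = 4.2e-05). SESN2 (0.53 ± 0.073) and CCNG1 (0.39 ± 0.062) were higher and the nuclease gene AEN was lower (-0.51 ± 0.071). SESN1 (0.27 ± 0.082) and MDM4 (added, -0.31 ± 0.10) were called with all arrays, but SESN1 lost its call without DW71177 replicate 2 or any DW71374 array, and MDM4 without any array but DW71177 replicate 2. The lower count was 1 without DW71177 replicate 1 or DW71374 replicate 2.

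Chaperones were lower in 7 of 9 cases and higher in 0 (median -0.38). TRAP1, the mitochondrial HSP90, read 8.23, 8.22 and 8.22 with DW71177 and 8.88, 8.96 and 8.97 with DW71374, a difference of -0.71 ± 0.050 with no overlap (adjusted p = 4.9e-07). HSPH1 (-0.61 ± 0.053) and the mitochondrial chaperones HSPD1 (-0.55 ± 0.054) and HSPA9 (-0.45 ± 0.048) were lower as well. Of 12 genes of the amino acid and unfolded protein responses 3 were higher and 2 lower (median 0.09), among them ATF4 at -0.29 ± 0.072, XBP1 at 0.29 ± 0.060 and SESN2 again, and SEL1L (0.22 ± 0.060) losing its call without DW71177 replicate 2 or DW71374 replicate 2. Of 7 adhesion genes ICAM1 and the signal gene CD47 (0.45 ± 0.099) were higher and ICAM3 (-0.61 ± 0.089), CD44 (-0.37 ± 0.074) and SELPLG (-0.33 ± 0.077) lower (median -0.13).

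Enzymes that modify histones and DNA differed in equal numbers up and down, 13 of 47 each (median -0.01). The acetyltransferase paralogs KAT2A and KAT2B (added) went in opposite directions. KAT2A read 6.51, 6.75 and 6.83 with DW71177 and 7.61, 7.63 and 7.61 with DW71374 (-0.92 ± 0.080, adjusted p = 2.7e-06), and KAT2B read 6.85, 6.93 and 6.85 with DW71177 and 6.15, 6.12 and 6.05 with DW71374 (0.77 ± 0.067, adjusted p = 2.7e-06). Neither overlapped between the compounds, and for both DW71374 lay within 0.1 of DMSO on the log2 scale. The arginine methyltransferases PRMT5 (-0.70 ± 0.081) and PRMT1 (-0.59 ± 0.064), SUV39H1 (-0.61 ± 0.075) and the added EZH2 (-0.39 ± 0.074) and UHRF1 (-0.59 ± 0.095), of histone and DNA methylation, were lower. SETD2, which methylates H3K36 (0.65 ± 0.080), and the added deacetylase genes SIRT1 (0.55 ± 0.074) and HDAC3 (0.47 ± 0.071) were higher. For the deacetylases part of the distance lay on the DW71374 side, at -0.17 and -0.17 from DMSO, neither called. With only the 6 arrays in the fit 8 of the 47 were higher.

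Of 8 metallothionein genes and MTF1, the factor that induces them, 1 was higher and 2 lower (median -0.09), and the zinc transporters of the plotted list were not analysed here. MT2A read 9.31, 9.19 and 8.99 against 8.56, 8.54 and 8.38 (0.67 ± 0.075, adjusted p = 2.2e-05). MT1G (-0.29 ± 0.084) and MT1M (-0.57 ± 0.16, dim) lost their calls without single arrays. For MT1G these were DW71177 replicates 1 and 3 and DW71374 replicates 1 and 2, and for MT1M DW71177 replicates 1 and 2 and DW71374 replicate 3. Metallothionein copies are so similar that their signals may mix. Without DW71177 replicate 3 or DW71374 replicate 1 the higher count was 2, and it was 3 after quantile normalization and 4 with a variance trend in the fit or with genes of a mean of at least 5 alone.

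Of 13 noncoding host genes, 11 of small nucleolar RNAs and 2 of microRNAs (MIR17HG and MIR22HG), 8 were lower and 1 higher (median -0.24). Of the 11 small nucleolar RNA hosts 7 were lower and 0 higher (median -0.24). SNHG16 read 8.17, 8.09 and 8.11 with DW71177 and 8.94, 9.04 and 8.96 with DW71374 (-0.86 ± 0.070, adjusted p = 1.6e-06). SNHG17 (-0.82 ± 0.075), DANCR (-0.69 ± 0.10, dim) and MIR17HG, which carries the miR-17-92 cluster (-0.78 ± 0.13, dim), were lower too. Without DW71374 replicate 2 the lower count was 5. The 1 higher, MIR22HG (added, 0.49 ± 0.14, dim), lost its call without DW71177 replicate 2 or any DW71374 array. Among other noncoding genes, all added, LINC00996 was lower, with 5.85, 6.01 and 6.23 against 7.40, 7.58 and 7.54 (-1.48 ± 0.098, adjusted p = 2.9e-07), as were VPS9D1-AS1 (-1.22 ± 0.067) and LINC00926 (-1.10 ± 0.14). MALAT1, an abundant nuclear RNA, was higher by 0.40 ± 0.088 and its other features by 0.44 and 0.80. Whether overlapping transcripts share these features was not tested.

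**Figure D4:**
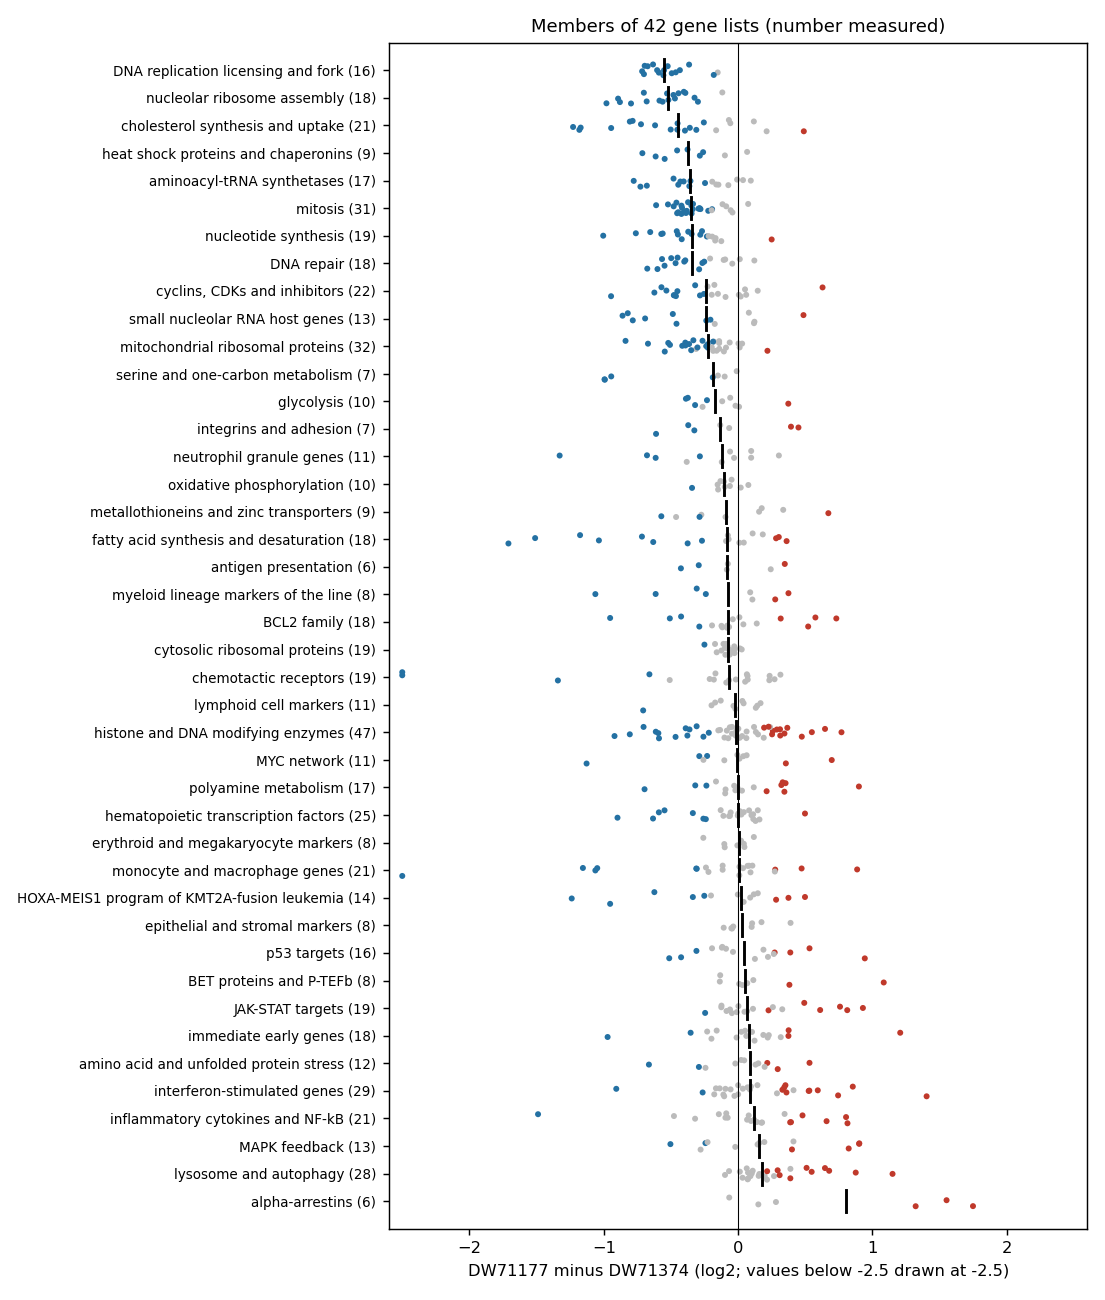
Points are the measured members of 42 gene lists (number measured in brackets), placed by DW71177 minus DW71374 (log2, horizontal axis; values below -2.5 drawn at -2.5), with members called lower in blue, higher in red and not called in grey, and the list median as a black bar. Medians run from -0.55 for DNA replication to 0.80 for the alpha-arrestins, and many lists hold both colours.

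The same table gave each compound's distance from the vehicle. DW71177 against DMSO called 2937 genes (19.8%), 1474 higher (9.95%) and 1463 lower (9.88%), and DW71374 against DMSO called 0 (0.0%). In that last contrast the smallest adjusted p of limma was 0.6. An unadjusted p under 0.05 was reached by 686 of 14812 genes, which is below the share of 0.05 expected if no gene differed. The like counts were 4207 for DW71177 against DW71374 and 4364 for DW71177 against DMSO. All 3 contrasts share arrays, so they are set side by side and not counted as separate support. Among 6736 genes with a mean of at least 5, the spread of the differences (SD over genes) was 0.33 for DW71177 against DW71374, 0.34 for DW71177 against DMSO and 0.085 for DW71374 against DMSO. Differences past 0.5 numbered 718, 751 and 1. For the 90 genes at least 2-fold apart between the compounds, DW71374 minus DMSO ran from -0.78 to 0.75 with a median of 0.03, and lay within 0.3 of 0 for 85 of them. Thus the DW71374 values of these genes stood near the vehicle values, and no gene passed the test of that difference.

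**Figure D5:**
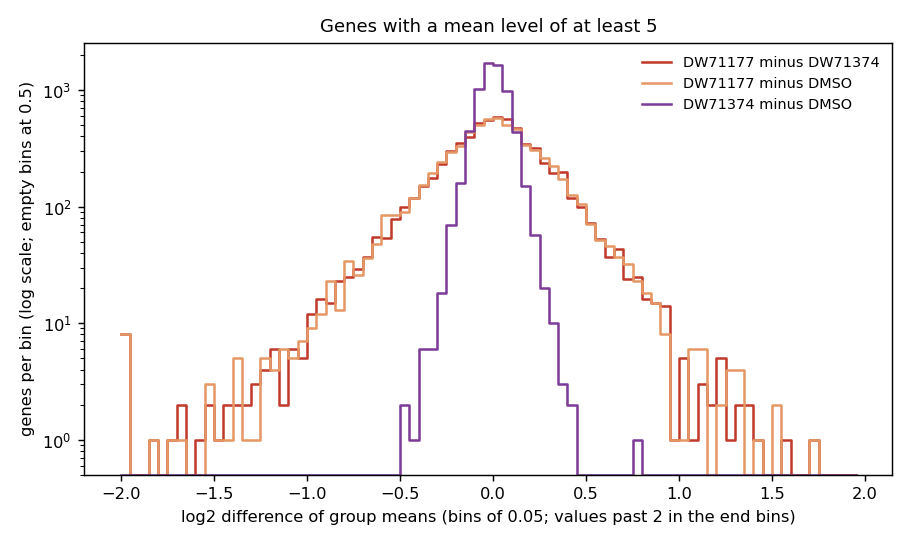
Lines count genes with a mean of at least 5 (vertical axis, log scale, empty bins drawn at 0.5) by log2 difference (horizontal axis, bins of 0.05, values past 2 in the end bins) for DW71177 minus DW71374, DW71177 minus DMSO and DW71374 minus DMSO. The first pair of lines nearly coincide, with SDs of 0.33 and 0.34, and the third is narrow, with an SD of 0.085.

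A gene that was not called is not thereby shown to be alike with the 2 compounds, but the intervals bound its difference. Of the 11925 genes not called, 11047 (92.6%) had a 95% interval of the direct difference inside 1.5-fold either way, and 99.5% had one inside 2-fold. For dim genes such an interval does not bound the true fold. MYB and FLT3 are bright examples, with intervals of -0.10 to 0.18 and -0.04 to 0.22. For the 10 largest rises and 10 largest falls, the intervals of DW71374 minus DMSO held 0 in 19 of 20 cases, with bounds from -0.71 (CLU) to 0.44 (KIAA0513) in log2 units. ZYG11B was the exception, at 0.03 to 0.36 with an adjusted p of 0.99 by limma. The intervals were -0.17 to 0.27 for MPEG1 and -0.18 to 0.12 for ARRDC4, and, among the genes of interest, -0.15 to 0.08 for MYC and -0.12 to 0.17 for HEXIM1.

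OTX015, at the same 300 nM, and RVX208, at a dose of 5 uM that differs from the pair's, are given here as values with no comparison. MPEG1 had a mean of 4.35 ± 0.24 with OTX015 and stood at 6.62 on each of the 3 RVX208 arrays. MYC stood at 7.89 ± 0.016 and 8.99 ± 0.038, HEXIM1 at 7.97 ± 0.012 and 7.06 ± 0.032, and ARRDC4 at 9.72 ± 0.024 and 7.72 ± 0.030 (mean ± SD, n = 3, log2 signal). These can be set beside the means of DW71177, which were 4.48 ± 0.15 for MPEG1, 8.15 ± 0.069 for MYC, 7.43 ± 0.072 for HEXIM1 and 8.68 ± 0.10 for ARRDC4. The corresponding DW71374 means were 8.73 ± 0.069, 9.28 ± 0.045, 6.34 ± 0.13 and 6.93 ± 0.069. For SAT1 the OTX015 and RVX208 means were 6.67 ± 0.0081 and 5.32 ± 0.096, beside 5.74 ± 0.14 with DW71177 and 4.85 ± 0.17 with DW71374.

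The DW71177 arrays varied somewhat more among themselves than the DW71374 arrays. Correlations across genes were 0.9924 to 0.9944 among the DW71177 arrays, 0.9948 to 0.9952 among the DW71374 arrays, 0.9862 to 0.9878 between them and 0.9947 to 0.9949 between DW71374 and DMSO. The median SD of a gene was 0.109 with DW71177 and 0.0915 with DW71374. Equal values on all 3 arrays of a group were seen in 48 genes with DW71177, 45 with DW71374 and 62 with DMSO.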

How the data were processed

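Total RNA of MV4-11 cells was measured on an Affymetrix whole-transcript human array with biotin-labelled sense cDNA, per the labels' protocols. The deposited values are on a log2 scale, which was inferred from their range of 0.56 to 12.9, and their nearly equal quartiles point to a normalization between arrays by the authors. How background was corrected, features were summarised and arrays were normalized, with which software and build, is not given in the sources used here. Any between-array normalization would remove a change shared by all genes. Of 44629 features 15835 named 1 gene in the platform annotation, 0 named several and 28794 named none, and all named ones matched RefSeq gene identifiers. They gave 14812 genes, 651 of them with several features.

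One model of the 5 group means over all 15 arrays was fitted with lmFit and eBayes of the R package limma (limma 3.58.1, R 4.3.3; 10 residual degrees of freedom, 13.4 with the prior). Two-sided p-values were adjusted over all 14812 genes by the Benjamini-Hochberg method, and genes were called at an adjusted p under 0.05. The number of arrays limits the precision.

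The genes named were the 10 largest rises and 10 largest falls among called genes whose arrays did not overlap and whose higher mean was at least 5, a fixed set of genes of interest, and up to 6 members of each list by smallest p. Members and lists were chosen with earlier results of these data known. Lists are described by counts and medians of their measured members, without a test. Of 1105 listed genes 668 were measured, and coverage was low in some lists. Examples were 9 of 29 chaperones, 7 of 29 adhesion genes and 6 of 25 antigen presentation genes. A list with 1 measured gene was left out. Features per gene, normalization, level filter, arrays in the fit, variance model, array weights, a replicate block and leaving out single arrays were varied.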

Additional observations from a re-analysis of the deposited data

Results flagged for a closer look

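Some features without a gene name were called as well, though a smaller share of them than of all features. Of 28794 features that the annotation used here leaves without a gene name, limma called 1655 (5.75%) between DW71177 and DW71374 in a fit over all features, 802 higher with DW71177 and 853 lower, and 149 of them differed by at least 2-fold. Between DW71374 and DMSO 0 of these features were called. They are not named here, and which transcripts they read was not tested.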

How the results depend on the processing

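The alternatives that count genes kept the count of genes called between DW71177 and DW71374 within 1.5 times of 2887. It was 2132 with the 6 arrays of the compounds alone, 3214 with a variance trend and robust fit, and 2302 to 2588 without single arrays. A fit over all features called 3976 features, which are not all genes. The higher share of the calls stayed between 47.1% and 52.3%. With the replicate number as a block, 2779 genes were called, but same-numbered arrays share only a number, since their deviations correlated at -0.087 to 0.098 over 30 pairs. DW71374 against DMSO gave 0 calls in every alternative, and DW71177 against DMSO gave 2745 to 3315, or 2459 to 2874 without single arrays. Of 4711 values of 317 named genes under the alternatives, 4462 kept direction and call, 201 (41 genes) lost the call and 35 (19 genes) gained one. The other 13 values, of 9 genes that were not called, changed sign, among them MYB, MAX, ODC1 and GINS4. Of 1260 list counts 92 moved by over 1.5 times, many from counts of 1 to 3. Of the larger counts, the fit of 6 arrays moved 4, leaving out genes of a mean under 5 moved 1, and all features or a left-out array moved the others, with values beside the lists. The causes were not tested. Dim genes limit what the folds show, since no background level was given.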
